A study of Mus musculus with 18 samples.

Results

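Lipochondrocytes of the mouse ear at postnatal day 21 (P21) were compared with adipocytes of inguinal fat by RNA sequencing, with 3 libraries of each. Both groups came from Wnt1-Cre2;TdTomato mice on a C57BL/6 background, in which Cre from a Wnt1 promoter switches on the red reporter in cells of the neural crest and their descendants. The P21 cells were released from ear cartilage by enzyme digestion, with visible fat kept out of the dissection, and the cells that floated after centrifugation were taken. The adipocytes were the floating cells of inguinal fat handled in the same way, but from mice of postnatal day 33 (P33), so cell type, tissue and age cannot be told apart in this comparison. Neither group was sorted on the reporter. The genes described are those with at least 1 FPKM (fragments per kilobase of gene, scaled by the mapped fragments of the library, as deposited) in at least 3 of the 6 libraries, which were 12454 of the 46983 genes in the table. Of these, 11144 are protein coding in GENCODE M21.

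Lipochondrocytes are chondrocytes of the external ear, nose and larynx that fill with a large lipid droplet during postnatal life and keep it, surrounded by an elastic matrix. Adipocytes store triglyceride in the same chemical form, and they release it as fatty acids under hormonal control, import fatty acids from the blood and secrete hormones. Chondrocytes make type II, IX and XI collagens and proteoglycans under the transcription factor Sox9, whereas fat cells depend on Pparg and Cebpa. The comparison therefore sets side by side a pair of lipid-filled cells from different lineages.

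The P21 libraries held 12804474 to 22494553 total reads and the adipocyte libraries 12461965 to 16627272, with alignment rates of 75.54% to 79.67%. Mitochondrially encoded genes took 4.7% to 4.9% of all FPKM in the P21 libraries and 23.3% to 25.5% in the adipocyte libraries. Over 2919 genes that averaged 10 FPKM or more here and in P33 lipochondrocytes, the median SD was 13.1% of the mean among the P21 libraries and 5.36% among the adipocyte libraries. The labels do not say whether the 3 libraries of a group came from separate animals or pools, so p-values measure the spread between these libraries, which may be technical. The SE given below rests on a spread pooled over all 18 libraries of the series.

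Marker genes of other cell types differed between the 2 groups. All 12 endothelial markers were lower in P21 cells, with a summed level of 11.9 to 19.1 FPKM against 732 to 774 in adipocytes, and all 12 macrophage markers were lower as well, at 17.6 to 27.8 against 778 to 841 FPKM. Of these, 9 endothelial and 8 macrophage markers passed through the adipocyte libraries alone. They reached 1 FPKM in all 3 libraries of that group only, which favours lower levels in P21 cells. Over all genes of the comparison 47.3% were lower. The endothelial junction gene Cldn5 was at 1.5, 0.41 and 2.51 FPKM in P21 cells and at 370, 357 and 377 in adipocytes. Haemoglobin and other erythroid genes summed to 84.3 to 451 FPKM in P21 cells and 962 to 1031 in adipocytes, and 5 of the 7 passed the filter, each lower in P21 cells, while Slc4a1 was at 0 in all 6 libraries. Skeletal muscle genes ran the other way. Of 14 muscle genes, 9 passed the filter, 6 of them through the P21 libraries alone, and 8 of the 9 were higher in P21 cells. The list summed to 373, 96.8 and 662 FPKM in P21 libraries 1, 2 and 3 against 56.4 to 60.2 in adipocytes. All 9 were highest in P21 library 3 and lowest in library 2. Of 16 fibroblast and perichondrium genes, 11 were higher and 3 lower in P21 cells. The sum was 5502, 8289 and 9991 FPKM against 442 to 453, led by Col1a1 and Col1a2. The 3 lower genes were Dpt (log2 difference -3.39), Cd34 (-1.27) and Dpp4 (-1.10). Without library 3 the muscle actin gene Acta1 no longer passed the test (log2 difference 1.43, adjusted p = 0.0709, against 2.04 and 0.0120), and Myh7 was at 0 in all 6 libraries. Sebocytes of ear skin also store lipid. Of 10 sebocyte genes, 4 passed the filter and 3 of them were lower in P21 cells, with Awat1 at 0 in all 6 libraries, Dgat2l6 at 0 in all P21 libraries and a sum of 22.9 to 33.8 FPKM against 2307 to 2333 that came almost wholly from Mgst1. Of 12 keratinocyte genes 1 passed the filter, and the list summed to 3.30 to 5.29 FPKM against 1.78 to 2.21, with Krt14 at 0.17 to 0.67 in P21 cells. Smooth muscle and pericyte genes were lower in 6 of the 6 that passed among 8, at sums of 16.5 to 29.6 against 112 FPKM. Lymphocyte genes were lower in 3 of 3 that passed among 10, at 0.66 to 1.15 against 9.25 to 11.0 FPKM, with Cd8a at 0 in all 6 libraries, and mast cell genes in 3 of 3 among 6, at 0.25 to 1.80 against 6.43 to 7.33. Through the adipocyte libraries alone passed 5 of the 6 smooth muscle and pericyte genes. So did all 3 lymphocyte and all 3 mast cell genes. None of 6 osteoblast genes passed the filter. The part of these cells in the results was not tested, and in such bulk samples fewer cells of a type cannot be told apart from less RNA per cell.

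Genes of handling stress also differed. Of 20 immediate early and heat shock genes, 19 passed the filter and all 19 were lower in P21 cells. Fos, an AP-1 subunit induced within minutes of cell handling, was at 36.0, 6.39 and 7.79 FPKM in P21 cells and at 1680.0, 1668 and 1775 in adipocytes (log2 difference -6.99, SE 0.41, adjusted p = 5.40e-10, or -7.73 without P21 library 1), and the heat shock gene Hspa1a was at 7.37 to 10.5 against 200 to 216 FPKM. Their part in the lower levels of other genes in P21 cells was not tested.

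Most genes differed between the 2 cell types. Of the 12454 genes, 8911 (71.6%) passed limma's moderated test at an adjusted p below 0.05, with 3026 (24.3%) higher and 5885 (47.3%) lower in P21 cells. Against a null difference of 2-fold, 3422 (27.5%) still passed, 1159 (9.31%) higher and 2263 (18.2%) lower. Differences are given on the log2(FPKM + 1) scale as P21 minus adipocytes, and the scale understates differences of genes with low values. The median difference was -0.35 over these genes. Rescaling the libraries by median-of-ratios moved that median to -0.10 and the split to 3743 higher and 4741 lower (44.1% of calls higher against 34.0% as deposited), and scaling to equal sums without mitochondrially encoded genes moved it to -0.68, with 2210 higher and 7294 lower. The direction of small differences therefore depends on the scaling, whereas 268 genes differed by over 5 in either direction as deposited and 237 under median-of-ratios. At 1 FPKM or more in all 3 libraries of a group, 8817 genes were present in both, 1300 only in P21 cells and 2077 only in adipocytes. Entry through a single group favours a higher level there, so counts over such genes are a description. Of the 1300, 1122 were called higher in P21 cells and 0 lower. Of the 2077, 1889 were called lower and 0 higher.

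**Figure D1:**
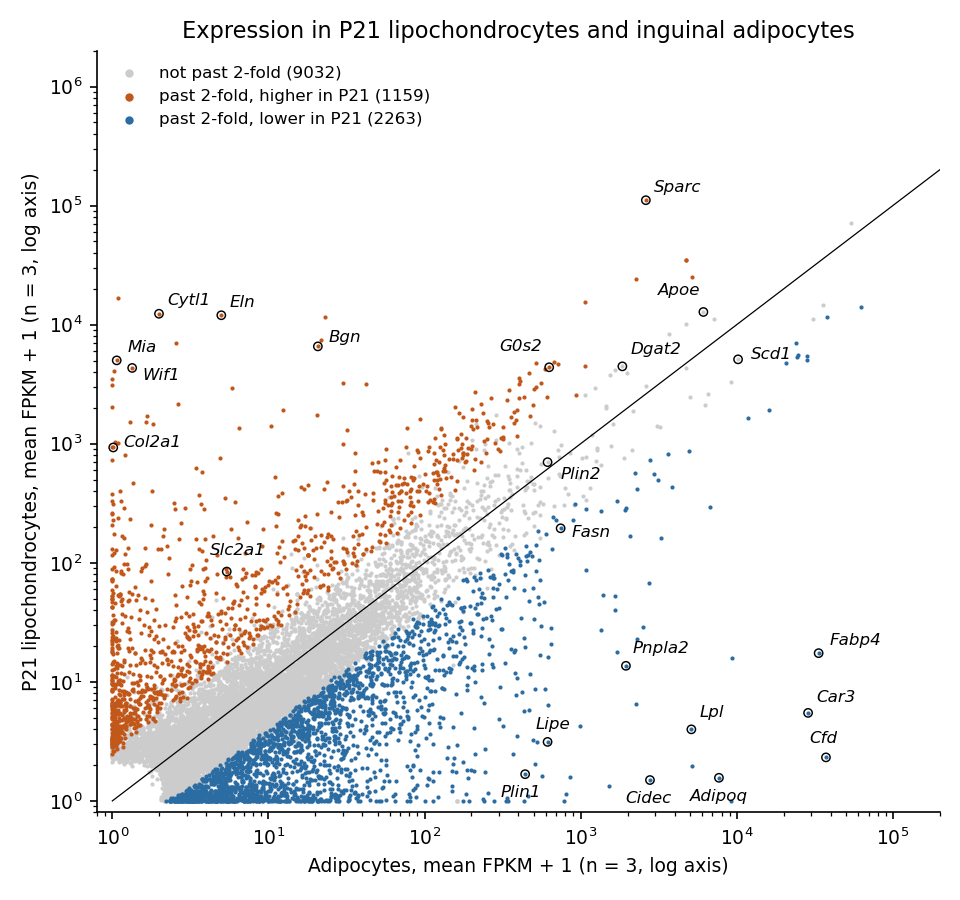
Mean FPKM + 1 of each of the 12454 genes in adipocytes (horizontal, log axis) and P21 lipochondrocytes (vertical, log axis), n = 3 libraries each, with equality as the line; orange and blue points passed the 2-fold test in either direction. Cytl1, Mia, Wif1 and Col2a1 lie at the left edge, Cfd, Fabp4, Car3 and Adipoq at the lower right, and Dgat2, Plin2, Scd1 and Apoe near the line.

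Most of the genes furthest above adipocytes encoded secreted and matrix proteins. Cytl1, a cytokine-like protein made by chondrocytes, was at 9542, 12539 and 14987 FPKM in P21 cells and at 1.25, 0.46 and 1.26 in adipocytes (log2 difference 12.60, SE 0.20, adjusted p = 1.15e-16). Mia, which chondrocytes secrete, was at 4085, 5536 and 5420.4 against 0.20, 0 and 0 FPKM. Wif1, a secreted inhibitor of Wnt ligands, was at 4626, 4502 and 3864 against 0.23, 0.47 and 0.32 FPKM (11.66, SE 0.26, adjusted p = 5.40e-15). These 3 genes were within 2 FPKM of 0 in every adipocyte library. The 12 largest rises also took in Fxyd3, a small regulator of the sodium pump, at 3786 to 4393 against 0 to 0.08 FPKM, the short-chain collagen Col8a1 at 5854 to 7728 against 1.5 to 1.64, and Wfdc2, a secreted protease inhibitor, at 523, 1103 and 1479 against 0, 0 and 0.13. Wfdc2 was lowest in library 1, as was the matrix gene Chad.

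The genes furthest below included hallmarks of fat. Cfd, the serine protease adipsin, was at 0.98, 2.12 and 0.86 FPKM in P21 cells and at 35931, 35112 and 40936 in adipocytes (log2 difference -14.01, SE 0.16, adjusted p = 6.91e-18). Car3, the carbonic anhydrase of fat and muscle, was at 4.10 to 4.98 against 28217 to 28971 FPKM (-12.35, SE 0.21). Adiponectin (Adipoq) was at 0.54, 0.59 and 0.56 against 7651, 7473 and 7965 FPKM (-12.27, SE 0.19, adjusted p = 1.18e-16). No library of either group lay near the range of the other for these 3 genes. The list of the 12 largest falls also held resistin (Retn), Fabp4, Cidec, Lpl, the cytochrome Cyp2e1, Pck1, Ifi27l2a, Nnat and Tmem45b, and each was at 18.7 FPKM or less in every P21 library.

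The promoters of 6 of these genes and of genes described below are shown as examples from either side of the comparison, chosen among genes whose RefSeq and GENCODE starts lie within 10 bases of each other. Cytl1 and the homeobox gene Hoxa2 were higher in P21 cells, and Cfd, Adipoq, the droplet gene Cidec and the lipase gene Pnpla2 were lower. Each is the 250 bases before the start annotated in RefSeq on GRCm38.p6, printed 5′ to 3′ on the gene's strand. Capitals mark the CCAAT box (CCAAT), the GC box (CCGCCC) and the TATA box (TATAAA), searched on both strands, and the matches shown do not overlap each other.
Cytl1: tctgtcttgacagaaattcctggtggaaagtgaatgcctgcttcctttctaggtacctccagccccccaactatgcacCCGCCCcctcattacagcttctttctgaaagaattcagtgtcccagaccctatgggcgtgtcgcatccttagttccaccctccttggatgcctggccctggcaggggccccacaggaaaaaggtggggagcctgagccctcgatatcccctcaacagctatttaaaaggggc
Hoxa2: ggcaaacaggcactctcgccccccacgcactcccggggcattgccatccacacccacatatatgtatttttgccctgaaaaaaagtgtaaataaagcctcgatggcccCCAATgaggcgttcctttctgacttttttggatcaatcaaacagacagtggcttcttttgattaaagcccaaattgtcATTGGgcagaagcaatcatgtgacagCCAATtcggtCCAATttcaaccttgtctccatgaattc
Cfd: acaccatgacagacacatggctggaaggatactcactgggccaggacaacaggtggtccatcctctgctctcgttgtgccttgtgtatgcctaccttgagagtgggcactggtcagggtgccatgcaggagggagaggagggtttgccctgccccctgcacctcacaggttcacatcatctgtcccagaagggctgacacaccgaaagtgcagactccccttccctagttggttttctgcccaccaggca
Adipoq: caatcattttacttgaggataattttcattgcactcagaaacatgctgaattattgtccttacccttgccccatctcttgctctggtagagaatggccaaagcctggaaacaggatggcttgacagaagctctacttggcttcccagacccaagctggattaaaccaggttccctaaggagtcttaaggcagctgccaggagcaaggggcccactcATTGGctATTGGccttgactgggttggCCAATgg
Cidec: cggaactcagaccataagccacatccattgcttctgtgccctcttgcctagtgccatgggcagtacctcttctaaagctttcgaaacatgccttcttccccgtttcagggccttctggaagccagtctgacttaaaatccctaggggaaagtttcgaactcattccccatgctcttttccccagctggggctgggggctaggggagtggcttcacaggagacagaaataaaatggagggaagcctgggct
Pnpla2: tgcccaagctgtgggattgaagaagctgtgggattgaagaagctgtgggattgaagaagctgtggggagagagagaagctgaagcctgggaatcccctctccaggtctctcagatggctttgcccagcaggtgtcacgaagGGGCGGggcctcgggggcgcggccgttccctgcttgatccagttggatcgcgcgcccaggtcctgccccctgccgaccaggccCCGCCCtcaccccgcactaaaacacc
The windows are chr5:37735269-37735518 (plus strand), chr6:52164832-52165081 (minus strand), chr10:79890603-79890852 (plus strand), chr16:23146286-23146535 (plus strand), chr6:113435761-113436010 (minus strand) and chr7:141454938-141455187 (plus strand). Hoxa2 held 4 matches to CCAAT and Adipoq 3, Pnpla2 held 2 matches to CCGCCC and Cytl1 1, and Cfd and Cidec held 0 matches to any of the 3. Over the 8770 genes with a RefSeq window, CCAAT occurred in 36.0%, CCGCCC in 59.8% and TATAAA in 6.41%, against 33.8%, 32.7% and 12.4% of all 32851 windows in the table. Among genes past 2-fold, CCAAT occurred in 34.1% of the higher and 36.1% of the lower, CCGCCC in 55.4% and 54.2%, and TATAAA in 7.93% and 9.56%. The groups of higher and lower genes thus had like shares of each motif.

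The defining genes of cartilage were present in the P21 libraries and near 0 in the adipocyte libraries. All 7 cartilage collagens passed the filter, each through the P21 libraries alone, and all 7 were higher. Col2a1, the main fibrillar collagen of cartilage, was at 1003, 935 and 850.1 FPKM in P21 cells and at 0, 0 and 0.04 in adipocytes (log2 difference 9.84, SE 0.17, adjusted p = 3.22e-16). Its 3 type IX partners were listed at 0 in every adipocyte library, with Col9a3 at 2115, 2096 and 1839 FPKM in P21 cells, Col9a1 at 693 to 759 and Col9a2 at 261 to 488. Col27a1 was lowest of the set at 76.4 to 116 against 0.20 to 0.28 FPKM. All 7 collagens were lowest in P21 library 3. Of 12 secreted cartilage proteins, 10 passed and 9 were higher. These 9 passed through the P21 libraries alone and Crtac1 through the adipocyte libraries alone, so the filter favoured this split. Among the 9 was 3110079O15Rik, which encodes the cartilage proteoglycan Snorc, at 3223 to 3774 FPKM against a listing of 0. Lect1, the anti-angiogenic chondromodulin, was at 1178, 1716 and 1653 against 0.07 to 0.65. Crtac1 was the exception, at 0.29 to 1.05 against 4.03 to 4.82 FPKM (-1.70, SE 0.13, adjusted p = 1.32e-08). Aggrecan (Acan), the large proteoglycan that gives cartilage its swelling pressure, was at 268, 212 and 137 FPKM and listed at 0 in adipocytes. Of 11 genes of the aggrecan network and the matrilins, 8 passed the filter, 5 of them through the P21 libraries alone. Of the 8, 7 were higher, while Matn1 was listed at 0 in all 6 libraries.

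Small leucine-rich proteoglycans, which space collagen fibrils, were higher in 8 of the 9 that passed. Biglycan (Bgn) was at 7067, 6637 and 6013 FPKM against 21.4, 18.8 and 19.1 (log2 difference 8.31, SE 0.10, adjusted p = 7.64e-18), and fibromodulin (Fmod) at 970, 1815 and 1771 against 0.52 to 0.86. Decorin (Dcn) was present in both cell types, at 1147 to 2536 against 156 to 170 FPKM (3.39, SE 0.27). Podn did not pass the test (0.17, SE 0.19, adjusted p = 0.463). Most fibroblast genes, Col1a1 foremost, were higher in the same libraries, as given above, and their part in these levels was not tested. The fibroblast sum was highest in library 3, as were 6 of the 9 proteoglycans, beside 4304 of all 12454 genes. Bgn was lowest in library 3, and Fmod was not highest there. The median difference of this list was 3.84. Sparc, a calcium-binding matrix protein, had the highest level of any gene with a standard symbol in P21 cells, at 101177, 114077 and 118046 FPKM against 2652, 2454 and 2749 (5.41, SE 0.20, adjusted p = 2.52e-12).

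Genes of the elastic fibre were high. Elastin (Eln) was at 14160.2, 11787 and 10065 FPKM in P21 cells and at 3.72, 3.37 and 4.88 in adipocytes (log2 difference 11.23, SE 0.25, adjusted p = 4.88e-15). Of 20 elastic fibre genes, 16 were higher and 2 lower, beside 24.3% and 47.3% of all genes of the comparison. Through the P21 libraries alone passed 4 of the 20. The microfibril genes Mfap4 and Mfap2 were at 731 to 2084 and 339 to 881 FPKM against under 3, and the crosslinking enzyme Lox was at 702.6, 484 and 402 against 9.35 to 10.4 (5.56, SE 0.24). Efemp2, which is needed to assemble elastin, was at 299 to 409 against 8.78 to 13.0, whereas its relative Efemp1 was at 2.21 to 3.36 against 46.5 to 51.0 (-3.72, SE 0.19, adjusted p = 1.00e-10). Mfap5 was the other lower gene (-0.87, SE 0.33, adjusted p = 0.0322), with library 3 at 20.6 FPKM inside the adipocyte range of 19.3 to 23.4. Mfap5 lost its call without any of the other 5 libraries in turn, at -0.62 to -0.92, and under median-of-ratios scaling (-0.57, adjusted p = 0.147).

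Collagen modification enzymes followed. Of 21 genes of collagen folding and processing that passed, each in both groups, 18 were higher and 2 lower, with a median difference of 1.23. Fkbp10, a collagen prolyl isomerase of the endoplasmic reticulum, was at 180 to 216 FPKM against 3.96 to 5.84 (log2 difference 5.08, SE 0.16, adjusted p = 3.97e-13), and Ppib and Crtap, partners of the prolyl 3-hydroxylase P3h1, were higher by 3.31 and 3.02. Pcolce, which helps to cleave the procollagen end, was higher by 3.57. The collagen chaperone Serpinh1 did not pass, at 167 to 316 against 219 to 234 FPKM. Of 19 genes of chondroitin sulfate synthesis that passed, 12 were higher, with a median of 0.69, led by the first enzyme of the pathway, Xylt1 (2.78, SE 0.16). Basement membrane genes went the other way, with 9 of 13 lower and a median of -1.80. Through the adipocyte libraries alone passed 3 of the 13. Among all genes of the comparison, 24.3% were higher and 47.3% lower. Col4a1 was at 2.81 to 4.63 against 67.5 to 74.9 FPKM (-3.96, SE 0.21, adjusted p = 1.38e-10) and Lamb1 at 0.53 to 1.10 against 15.5 to 16.8, while Nid2, Hspg2 and Sparcl1 were higher. Fat cells are wrapped in a basement membrane, and the endothelial and pericyte markers, which moved with these genes, differed as given above, a part that was not tested.

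**Figure D2:**
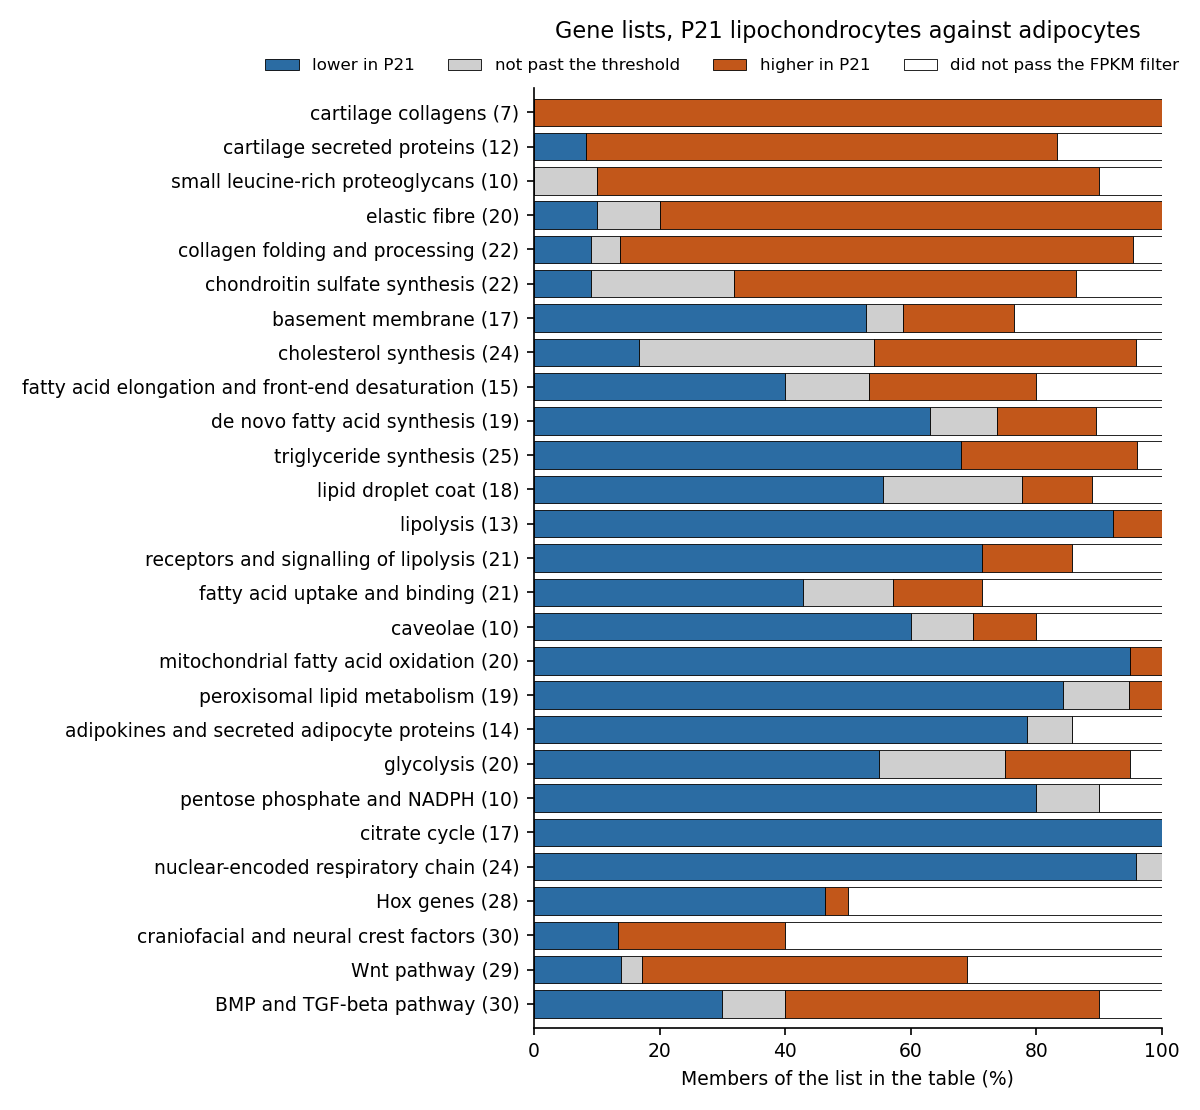
Share of the members of 27 gene lists in the table (percent, horizontal) that were lower, not past the threshold or higher in P21 lipochondrocytes, or that did not pass the FPKM filter; the number of members stands in parentheses. Matrix lists are mostly orange, and lipolysis, fatty acid oxidation, the citrate cycle and the respiratory chain are nearly all blue.

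Sox9, the master factor of chondrocytes, was at 218, 223 and 178 FPKM in P21 cells and at 0.78, 0.78 and 0.76 in adipocytes (log2 difference 6.86, SE 0.22, adjusted p = 3.85e-13), and its partners Sox5 and Sox6 were higher by 2.52 and 2.55. Of 16 chondrocyte factors, 10 passed the filter, 4 of them through the P21 libraries alone, and 7 were higher. Mef2c and Runx1 were lower. The hypertrophic collagen Col10a1 was at 58.7, 21.4 and 16.1 against 0 to 0.07 FPKM, while 8 of 15 genes of hypertrophy and mineralization, Ihh and Mmp13 among them, did not pass the filter. Mgp, an inhibitor of calcification, was at 10915, 9521 and 14696 against 21.2 to 22.8 FPKM (8.97, SE 0.29, adjusted p = 5.01e-13).

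Of 24 adipogenic factors in the table, 23 passed the filter, and 15 were lower and 5 higher. Through the adipocyte libraries alone passed 5 of the 23, and through the P21 libraries alone 1. Lower genes made up 47.3% and higher genes 24.3% of the comparison. Pparg, the nuclear receptor that drives fat cell differentiation, was at 16.7, 13.0 and 8.63 FPKM in P21 cells and at 101, 95.7 and 96.7 in adipocytes (log2 difference -2.89, SE 0.20, adjusted p = 4.62e-09). Cebpa was at 13.5, 7.03 and 4.56 against 181 to 188 FPKM (-4.43, SE 0.42). Pparg was thus detected in every P21 library, below every adipocyte library, and highest in library 1. Klf5, a zinc finger factor of adipogenesis and epithelia, was higher, at 12.9, 15.3 and 9.43 against 0.13 to 0.16 FPKM (3.54, SE 0.28, adjusted p = 2.29e-08), as were Prdm16 (1.21, SE 0.22), Klf15 (0.41, SE 0.12), Tcf7l1 (0.36, SE 0.15, adjusted p = 0.0460) and the lipogenic factor Srebf1 (0.85, SE 0.21). Tcf7l1 lost its call without P21 library 1 or 3 or adipocyte library 3 (0.23 to 0.39), and scaling without mitochondrially encoded genes took the call from Klf15 (0.02), Srebf1 (0.44) and Tcf7l1 (0.07). The carbohydrate-responsive factor Mlxipl was at 0.51 to 1.27 against 18 to 19.4 FPKM (-3.35, SE 0.13, adjusted p = 6.31e-12).

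Homeobox genes mark body position. Of 28 Hox genes in the table, 14 passed the filter, 13 of them through the adipocyte libraries alone, so the filter favoured lower levels in P21 cells for those 13. Of them, 10 were listed at 0 in every P21 library, among them Hoxc8 at 10.8 to 11.1 FPKM and Hoxa10 at 9.48 to 14.6 in adipocytes. Hoxa2, which patterns the second pharyngeal arch, was the exception, at 5.08, 4.30 and 4.16 FPKM in P21 cells and at 0.33, 0.39 and 0.16 in adipocytes (log2 difference 2.09, SE 0.18, adjusted p = 6.02e-08). The groups did not overlap for any of the 14, as for 77.8% of all genes of the comparison. Hox genes lie in clusters with antisense transcripts, and whether strand was used in counting is not given in the sources used here. Of 30 craniofacial and neural crest factors, 12 passed and 8 were higher, 7 of which entered through the P21 libraries alone. Dlx5, a factor of jaw and ear outgrowth, was at 53.5, 53.3 and 47.1 FPKM against 0.07 to 0.18 (5.56, SE 0.14, adjusted p = 3.08e-14), and Msx1 at 79.0, 100.4 and 144 against 0.77 to 1.60 (5.53, SE 0.27). Lhx8, of the first arch, was at 3.22, 6.4 and 8.39 FPKM and listed at 0 in adipocytes. The trunk and limb mesoderm factor Meox2 was lower (-2.42, SE 0.16).

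**Figure D3:**
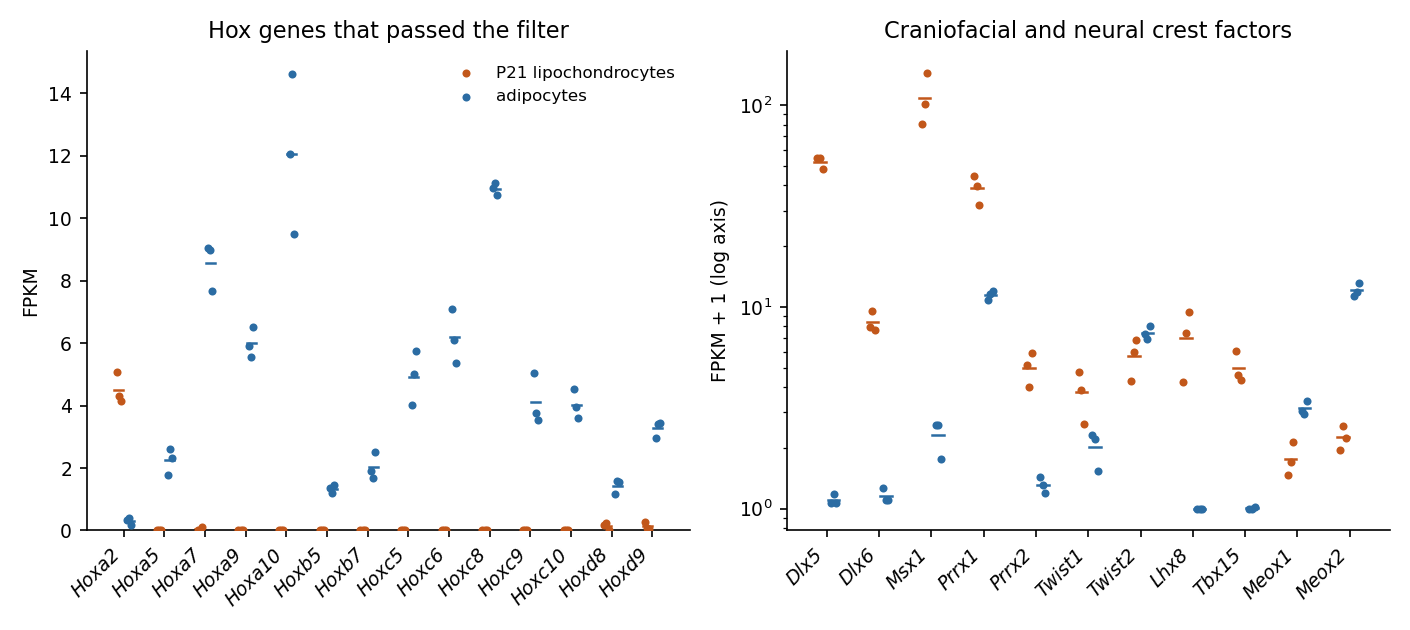
FPKM of each library (points, n = 3 per group) and group means (bars) for the 14 Hox genes that passed the filter (left, linear axis) and FPKM + 1 for 11 craniofacial and neural crest factors (right, log axis). Hoxa2 alone among the Hox genes shown is higher in P21 lipochondrocytes, and Dlx5 and Msx1 stand furthest above adipocytes at the right.

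Lipid synthesis genes were expressed in both cell types, at levels that diverged gene by gene. Of 17 genes of de novo fatty acid synthesis that passed, 12 were lower and 3 higher, with a median difference of -1.83. Lower genes made up 47.3% and higher genes 24.3% of the comparison. Through the adipocyte libraries alone passed 2 of the 17. Fasn, the fatty acid synthase, was at 243, 212 and 127 FPKM in P21 cells and at 788, 733 and 712 in adipocytes (log2 difference -1.99, SE 0.21, adjusted p = 6.23e-07). The citrate lyase Acly was at 112, 74.9 and 48.0 against 406 to 461 (-2.55, SE 0.28), and Thrsp, a lipogenic nuclear protein, at 19.5 to 32.3 against 2431 to 2572 (-6.48, SE 0.26). The desaturase Scd1 was abundant in both, at 6159, 5242 and 3944 against 10504, 10541 and 9571 FPKM (-1.02, SE 0.27, adjusted p = 0.00336). Among the P21 libraries, 10 of the 17 were highest in library 1 and 12 lowest in library 3, where 5074 and 4550 of all 12454 genes were. Aacs, which makes acetoacetyl-CoA from ketone bodies in the cytosol, was higher, at 427, 390.5 and 297 against 121 to 131 FPKM (1.53, SE 0.18, adjusted p = 2.47e-06), as were Scd2 (0.82, SE 0.27, adjusted p = 0.0148) and Srebf1. Without P21 library 1, Scd2 did not pass (0.59, adjusted p = 0.0805). Scd1 and Scd2 are close paralogs, and how reads shared between them were counted is not given in the sources used here.

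Elongation and desaturation genes were found on both sides. The front-end desaturase Fads2, which makes polyunsaturated fatty acids, was at 62.3, 42.9 and 34.1 FPKM against 4.53 to 5.67 (log2 difference 2.95, SE 0.20, adjusted p = 2.74e-09), while its relative Fads3 was at 0.96 to 1.13 against 54.5 to 56.8 (-4.81, SE 0.21). Elovl1, which elongates saturated very long chains, was higher (1.48, SE 0.13), as was Tecr, the last enzyme of the elongation cycle, at 538, 493 and 411 against 262 to 264 FPKM (0.86, SE 0.13, adjusted p = 3.87e-05). Elovl6 was lower (-1.83, SE 0.19). In all, 4 of the 12 genes that passed were higher and 6 lower, beside 24.3% higher and 47.3% lower over all genes of the comparison.

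Triglyceride synthesis genes were mostly lower, with exceptions. Of 24 genes that passed, 17 were lower and 7 higher, beside 47.3% and 24.3% of all genes of the comparison. Through the adipocyte libraries alone passed 4 of the 24, and through the P21 libraries alone 1. Dgat2, which adds the last acyl chain, was at 4763, 4930 and 3706 FPKM in P21 cells and at 1882, 1796 and 1874 in adipocytes (log2 difference 1.26, SE 0.19, adjusted p = 2.33e-05). Dgat1, the unrelated enzyme of the same reaction, was at 11.5, 12.9 and 13.3 against 205, 200.3 and 210 FPKM (-3.93, SE 0.12, adjusted p = 1.59e-13). Every P21 library was above every adipocyte library for Dgat2 and below for Dgat1. Genes that serve glycerol 3-phosphate formation and its first acylation were low in P21 cells, with Gpd1 at 13.8 to 15.8 against 605 to 619 FPKM (-5.26, SE 0.14), Pck1 at 0 to 0.27 against 794 to 827, and Agpat9 (Gpat3) at 0.13 to 0.15 against 74.8 to 80.6 (-6.12, SE 0.11). Agpat2, the acyltransferase mutated in lipodystrophy, was at 74.1 to 98.0 against 1019 to 1158 FPKM (-3.64, SE 0.14). Its relative Agpat4 was higher (1.61, SE 0.15), as were the acyl-CoA synthetases Acsl3 (1.87, SE 0.17) and Acsl6 (2.32, SE 0.13), and the phosphatidate phosphatases Lpin2 and Lpin3 (0.66 each), while Acsl1, the main form of fat, was at 4.53 to 6.18 against 597 to 629 FPKM (-6.60, SE 0.14).

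Most coat proteins of the lipid droplet were low in P21 cells, but not Plin2 and Cidea. Of 16 genes that passed, 10 were lower and 2 higher, beside 47.3% and 24.3% of all genes of the comparison. Through the adipocyte libraries alone passed 3 of the 16, and through the P21 libraries alone 1. Plin2, the coat protein found on droplets of most cells, was at 708, 807 and 583 FPKM in P21 cells and at 610, 595 and 635 in adipocytes, and did not pass the test (log2 difference 0.18, SE 0.14, adjusted p = 0.266). The ranges overlapped, and the 95% interval of the difference lay within 2-fold. Plin1, the coat protein that gates lipolysis in fat cells, was at 0.61, 0.34 and 1.08 against 436, 430 and 455 FPKM (-8.06, SE 0.16, adjusted p = 1.22e-15), and Plin4 and Plin5 were lower as well (-5.69 and -4.72). The 2 higher genes were Hsd17b11, a droplet-bound dehydrogenase (1.2), and Cideb (0.84). Cidea, which promotes droplet fusion, was at 93.3, 140 and 133 against 96.2, 92.8 and 97.0 FPKM (0.33, SE 0.16, adjusted p = 0.0860), whereas Cidec, its relative in white fat, was at 0.27, 0.85 and 0.37 against 2808, 2660 and 2877 (-10.88, SE 0.12, adjusted p = 3.33e-18). Median-of-ratios scaling put Plin2 at 0.48 and Cidea at 0.63, both past the threshold, and without P21 library 1 Cidea was at 0.51 (adjusted p = 0.00930).

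Expressed as a share of the pair, which FPKM allows because it is per length, Plin2 made up 99.9% ± 0.0731 (SD, n = 3 in each group) of Plin1 plus Plin2 in P21 cells and 58.2% ± 0.116 in adipocytes. Cidea made up 99.6% ± 0.186 of Cidea plus Cidec against 3.31% ± 0.0539. Acsl3 made up 80.6% ± 0.554 of Acsl1 plus Acsl3 against 0.874% ± 0.150, and Fads2 97.7% ± 0.670 of Fads2 plus Fads3 against 8.20% ± 0.814. Dgat2 made up 99.7% ± 0.0621 of Dgat1 plus Dgat2 against 90.0% ± 0.124, so it was the main form in both. These pairs were chosen after their values were seen.

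**Figure D4:**
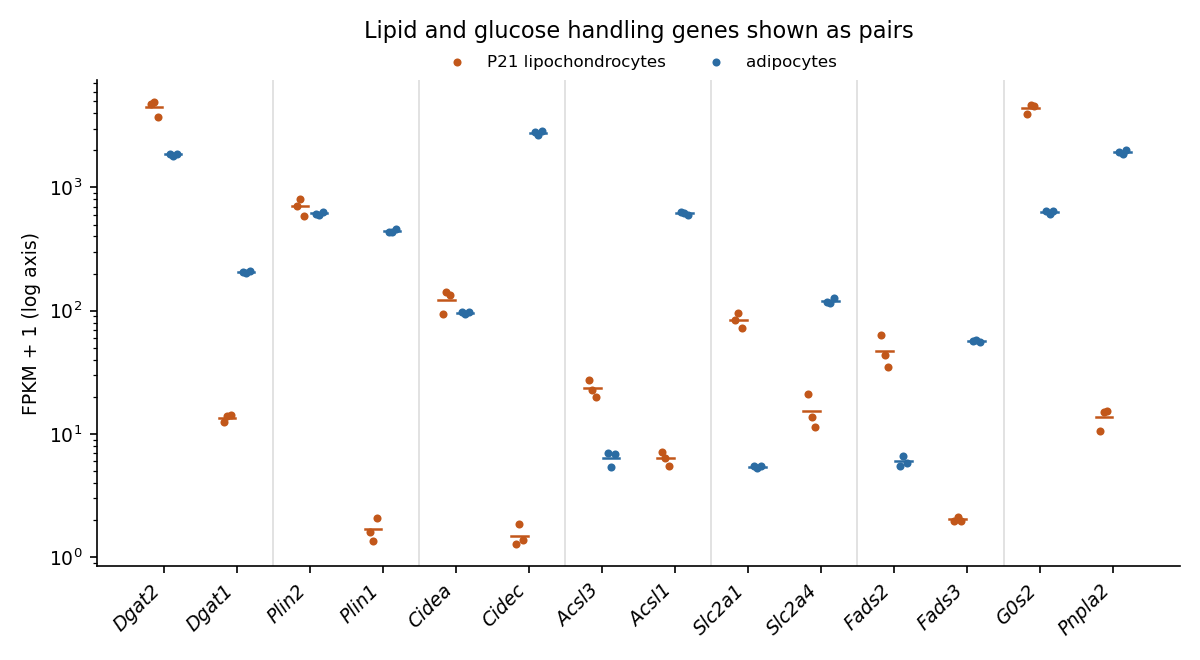
FPKM + 1 of each library (points, n = 3 per group, log axis) and group means (bars) for 6 pairs of genes with related products and for G0s2 with its target Pnpla2. In every pair the mean of the first gene in P21 lipochondrocytes is above the adipocyte mean and that of the second is below it, although Plin2 and Cidea did not pass the test.

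Genes that break down the droplet were low. Of 13 lipolysis genes, 12 were lower, 11 of them past 2-fold. The shares over all genes of the comparison were 47.3% lower and 18.2% lower past 2-fold. Through the adipocyte libraries alone passed 2 of the 13. Pnpla2, the lipase ATGL that starts lipolysis, was at 9.65, 13.9 and 14.3 FPKM in P21 cells and at 1948, 1880.3 and 2025 in adipocytes (log2 difference -7.18, SE 0.19, adjusted p = 4.28e-14). The hormone-sensitive lipase Lipe was at 1.70 to 2.4 against 578 to 666 (-7.62, SE 0.17), Ces1d at 2.45 to 4.46 against 956 to 1041 (-7.90, SE 0.15) and Mgll at 49.3 to 54.1 against 1319 to 1438 (-4.71, SE 0.24). The exception was G0s2, which binds and inhibits ATGL, at 3923, 4641 and 4603 against 638, 603 and 643 FPKM (2.80, SE 0.17, adjusted p = 9.20e-10). In every P21 library the inhibitor was the more abundant and in every adipocyte library the lipase was. Of 18 receptors and signalling genes of lipolysis that passed, 11 through adipocytes alone, 15 were lower. The beta-3 adrenergic receptor Adrb3 was listed at 0 in all P21 libraries and at 186 to 196 FPKM in adipocytes, and the protein kinase A subunit Prkar2b was at 0.56 to 1.04 against 146 to 152 (-6.40, SE 0.13). Gnas, the stimulatory G protein, was higher (0.92), and the inhibitory receptor Adra2a was at 1.68 to 2.17 against 0 to 0.02.

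Of 15 genes of fatty acid uptake and binding that passed, 9 were lower, 3 higher and 3 not past the threshold. Lpl, the lipase that frees fatty acids at the vessel wall, was at 3.34, 2.70 and 2.93 FPKM in P21 cells and at 5051, 5004 and 5315 in adipocytes (log2 difference -10.33, SE 0.14, adjusted p = 3.77e-17). The transporter Cd36 was at 7.71, 5.19 and 3.47 against 2258 to 2291 FPKM (-8.51, SE 0.18), and the binding protein Fabp4 at 13.2, 18.7 and 17.3 against 32802 to 34841 (-10.92, SE 0.17). Endothelial cells also make Cd36, Fabp4 and Gpihbp1, and their markers moved with these genes as given above, a part that was not tested. Dbi, which binds acyl-CoA inside the cell, was higher at 10372 to 12572 against 7045 to 7297 FPKM (0.65, SE 0.21, adjusted p = 0.0122, and 0.24 and not past the threshold when scaled without mitochondrially encoded genes), as were the endocytic receptor Lrp1 (2.05, SE 0.17) and Slc27a3 (1.41, SE 0.16). Of 8 caveola genes that passed, 6 were lower, with Cav1 at 45.7 to 57.6 against 1625 to 1695 FPKM (-4.98, SE 0.21). Among apolipoprotein and sterol efflux genes, 4 were higher and 6 lower of 12. Beside this list and the uptake list, 24.3% of all genes of the comparison were higher and 47.3% lower. Apoe was at 8511, 15040.3 and 14817 against 5898 to 6481 FPKM (1.02, SE 0.22, adjusted p = 7.36e-04), Apod and Clu, lipid carriers in tissue fluid, were higher by 5.92 and 3.11, and Lcat, which esterifies cholesterol in lipoproteins, was at 54.4 to 68.2 against 0 to 0.09.

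Cholesterol synthesis genes were expressed in both cell types with small differences. Of 23 genes that passed, 22 of them in both groups, 10 were higher, 4 lower and 9 not past the threshold. The median difference was 0.38. Among all genes of the comparison, 24.3% were higher and 47.3% lower. Fdps, which makes farnesyl diphosphate, was at 194, 205 and 167 FPKM in P21 cells and at 56.5, 54.5 and 62.8 in adipocytes (log2 difference 1.68, SE 0.17, adjusted p = 4.11e-07). The regulator Srebf2 was higher (1.79, SE 0.16) and the early enzyme Hmgcs1 lower (-1.45, SE 0.26). Of the 23 genes, 20 were highest in P21 library 1 and 17 lowest in library 3. Scaling without mitochondrially encoded genes left 6 of the 10 higher.

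Genes of oxidative metabolism were mostly lower. All 17 citrate cycle genes were lower, each past 2-fold, with a median difference of -2.64. Citrate synthase (Cs) was at 17.2, 14.5 and 12 FPKM in P21 cells and at 171, 165 and 182 in adipocytes (log2 difference -3.49, SE 0.12, adjusted p = 8.42e-13), and pyruvate carboxylase (Pcx) at 8.46 to 13.1 against 371 to 395 (-5.02, SE 0.13). Of 24 nuclear-encoded respiratory chain subunits, 23 were lower, with a median of -1.86, and Cox6c alone did not pass (-0.45, SE 0.20, adjusted p = 0.0582). Of 13 mitochondrially encoded proteins, 12 were lower. mt-Co1 was at 6535, 7650 and 7018 against 23522 to 24360 FPKM (-1.76, SE 0.13). Of 20 genes of mitochondrial fatty acid oxidation, 19 were lower and 17 past 2-fold, such as Hadhb at 16.1 to 18.6 against 377 to 383 FPKM (-4.38, SE 0.12), and only the brain-type Cpt1c was higher (1.83, SE 0.12). Peroxisomal genes were lower in 16 of 19. Over all genes of the comparison the median was -0.35, with 47.3% lower and 18.2% lower past 2-fold. Median-of-ratios scaling moved the medians to -2.33 for the citrate cycle and -1.56 for the respiratory chain.

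The 2 cell types differed in their glucose transporter genes. Slc2a1 (GLUT1), which takes up glucose without insulin, was at 83.6, 94.8 and 71.8 FPKM in P21 cells and at 4.52, 4.25 and 4.45 in adipocytes (log2 difference 3.96, SE 0.27, adjusted p = 3.50e-09). Slc2a4 (GLUT4), the insulin-responsive transporter, was at 20.2, 12.6 and 10.4 against 115 to 126 FPKM (-3.01, SE 0.20). Slc2a1 made up 85.4% ± 4.22 of the pair in P21 cells and 3.57% ± 0.156 in adipocytes. Of 19 glycolysis genes, 4 were higher and 11 lower, with a median of -0.54, or 5 and 7 under median-of-ratios scaling. The shares over all genes of the comparison were 24.3% higher and 47.3% lower. The list summed to 3138 to 3686 FPKM in P21 cells and 6496 to 7022 in adipocytes. Eno1 and Pkm did not pass the test (-0.07 and -0.14), though both were past the threshold as lower when scaled without mitochondrially encoded genes. Aldoc was higher (5.25, SE 0.20) and Aldoa lower (-2.43, SE 0.14), and Hk2, the insulin-regulated hexokinase, was at 0.02 to 0.16 against 14.8 to 16.8 FPKM (-3.97, SE 0.16). Genes of the pentose phosphate pathway and of NADPH supply were lower in 8 of 9, with G6pdx at 11.3 to 15.4 against 156 to 174 FPKM (-3.56, SE 0.12) and the malic enzyme Me1 at 33.1 to 65.7 against 455 to 483 (-3.34, SE 0.23).

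Adipokine genes and most genes of the insulin response were lower. Of 12 adipokine genes that passed, 6 of them through adipocytes alone, 11 were lower and 0 higher. Leptin (Lep) was listed at 0 in the P21 libraries and at 174 to 177 FPKM in adipocytes, and the metabolic factor Angptl4 was at 5.61 to 7.48 against 376 to 397 (log2 difference -5.64, SE 0.14). Rbp4, the retinol carrier, was at 373, 304 and 313 against 1692 to 1723 FPKM (-2.37, SE 0.38), which was the highest P21 level in the list. Of 17 genes of the adipocyte surface and insulin response that passed, 7 of them through adipocytes alone, 15 were lower. The growth hormone receptor Ghr was among them at 25.2 to 29.0 against 612 to 673 FPKM (-4.50, SE 0.12), while the insulin receptor Insr did not pass the test (-0.33, SE 0.14, adjusted p = 0.0568). Grb14, an adaptor that inhibits the insulin receptor, was higher (1.35, SE 0.18, adjusted p = 1.01e-05). Of 12 brown and beige fat genes that passed, 8 of them through adipocytes alone, 10 were lower. Ucp1 was listed at 0 in P21 cells and at 36.3 to 37.0 FPKM in adipocytes. Of all genes of the comparison, 47.3% were lower.

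Wnt, BMP and IGF pathway genes included many that entered through the P21 libraries alone, which favours higher levels there: 10 of 20 Wnt genes, 8 of 27 BMP and TGF-beta genes and 6 of 18 IGF axis genes. Of the 20 Wnt genes, 15 were higher and 4 lower. Secreted antagonists were found on both sides. Frzb was at 517, 520.0 and 360 FPKM against 0.34 to 0.40 (log2 difference 8.40, SE 0.31, adjusted p = 2.11e-12). Dkk3 was at 79.8 to 106 against 0.33 to 0.74 (5.87, SE 0.17), and Wif1 was higher as given above. Sfrp5 was lower, at 1.90 to 3.64 against 28.1 to 33.1 FPKM (-3.19, SE 0.24). Sfrp4 was lower too, at 0.19 to 0.23 against 3.23 to 3.72 (-1.91, SE 0.14). Among receptors, Fzd1 was higher (2.12, SE 0.19) and Fzd4 lower (-4.16, SE 0.11). Of 27 BMP and TGF-beta genes that passed, 15 were higher and 9 lower. For these pathways, the shares over all genes of the comparison were 24.3% higher and 47.3% lower. The joint and cartilage ligand Gdf5 was at 119, 181 and 204 against 3.07 to 3.83 FPKM (5.22, SE 0.24, adjusted p = 3.20e-11) and Bmp5, a ligand of ear cartilage growth, at 18.2 to 21.1 against 0.05 to 0.11 (4.23, SE 0.10). The activin-type receptor Acvr1c of fat was at 0 to 0.01 against 14.0 to 15.5 (-3.94, SE 0.06). Of 18 genes of the IGF axis and imprinted growth genes, 12 were higher and 3 lower. Igf2 was at 74.9, 103 and 208 against 0.64 to 1.37 FPKM (5.86, SE 0.35), Igfbp2 at 569, 786 and 1051 against 0.11 to 0.34 (9.33, SE 0.35) and Igf1 at 70.4, 64.0 and 80.7 against 133 to 139 (-0.91, SE 0.12, adjusted p = 9.36e-06). H19 was at 12.7 to 26.7 FPKM and listed at 0 in adipocytes.

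Antioxidant genes were mostly lower and genes of the secretory pathway were mixed. Of 22 antioxidant genes that passed, 14 were lower and 3 higher, with a median of -1.05, and Gpx3 was at 1.18 to 3.34 against 522 to 534 FPKM (log2 difference -7.46, SE 0.39). The quinone and carbonyl reductase genes Nqo1 and Cbr2 were higher (2.97 and 4.13). Of 23 genes of endoplasmic reticulum stress and secretion, 7 were higher and 10 lower, or 10 and 7 under median-of-ratios scaling. As deposited, 24.3% of all genes of the comparison were higher and 47.3% lower. Atf4 was at 234, 168 and 137 against 58.1 to 62.4 FPKM (1.54, SE 0.16, adjusted p = 5.59e-07) and Herpud1 was higher by 1.91, while Xbp1 and the chaperone Hspa5 were lower (-1.30 and -0.70). Proliferation genes were low in both, and 11 of 22, Mki67 and Top2a among them, did not pass the filter.

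Some abundant genes were at like levels in both cell types. In both cell types 460 genes averaged 100 FPKM or more, of which 138 had a 95% interval within 2-fold, 125 were past 2-fold higher and 50 past 2-fold lower. The iron store gene Fth1 was at 3610.1, 4750 and 4633 FPKM in P21 cells and at 4806, 4633 and 4868 in adipocytes (log2 difference -0.15, SE 0.17, adjusted p = 0.441). The membrane protein gene Itm2b was at 1028, 1304 and 1231 against 1171, 1153 and 1220, with a difference of 0.00 (SE 0.13). Their ranges overlapped, and scaling without mitochondrially encoded genes put both past the threshold as lower (-0.56 and -0.41). Ldha, which makes lactate, was lower within 2-fold, at 809, 894 and 941 against 1224 to 1326 FPKM (-0.54, SE 0.14, adjusted p = 0.00302, and -0.24 and not past the threshold under median-of-ratios scaling). Over all genes, 4750 had an interval within 2-fold, and 1854 of these still passed the test of any difference.

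Some of these differences moved with age. Lipochondrocytes of P33 share their age with the adipocytes, and the 2 comparisons share the adipocyte libraries. P21 was chosen because lipid synthesis transcripts peak there in these data. That choice favours a fall of such genes by P33, so their fall is a description. Against adipocytes, 2878 (23.1%) of the genes were higher and 6096 (48.9%) lower at P33, 72.1% in all. Between the ages, 348 (2.79%) were higher and 972 (7.8%) lower at P33, 10.6% in all. Dgat2 stood at 1062, 1630 and 883 FPKM at P33, below the adipocyte range instead of above it (P33 minus P21 -1.94, SE 0.19, adjusted p = 1.2e-05). Aacs stood at 52.3 ± 15 FPKM (SD, n = 3) at P33 (P33 minus P21 -2.83, SE 0.18, adjusted p = 5.81e-07) and Tecr at 177 ± 33 (-1.45, SE 0.13). Igf1 passed the adipocyte level in the other direction, at 171, 167 and 200 FPKM (P33 minus P21 1.31, SE 0.12, adjusted p = 9.62e-06). Cholesterol synthesis genes were higher than adipocytes in 10 and lower in 4 at P21, and higher in 3 and lower in 13 at P33. Cfd, Adipoq and Adrb3 were also near 0 at P33, at means of 0.553, 0.543 and 0 FPKM.

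**Figure D5:**
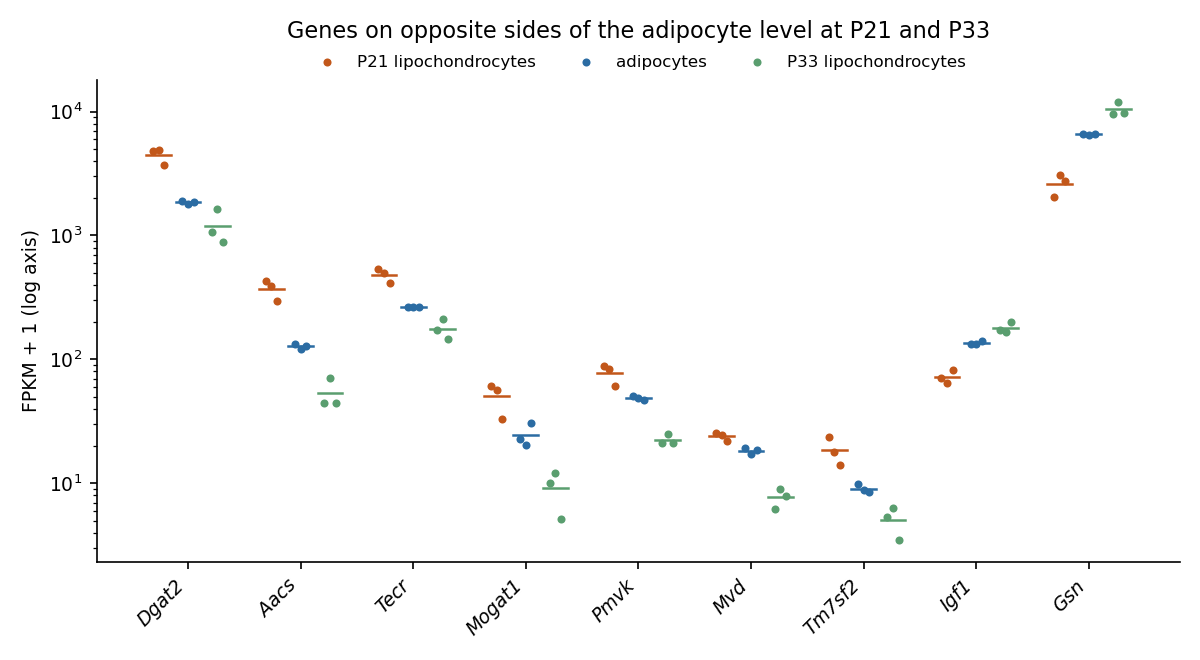
FPKM + 1 of each library (points, n = 3 per group, log axis) and group means (bars) for 9 genes whose P21 and P33 lipochondrocyte levels lie on opposite sides of the adipocyte level. The 7 genes of lipid and sterol synthesis at the left fall from P21 to P33, and Igf1 and Gsn at the right rise. P21 was chosen for its peak of lipid synthesis transcripts, which favours such falls. The 9 genes are part of a longer set that also holds falls of other genes, such as Tubb4b.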

How the data were processed

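RNA of floating cells of ear cartilage and of inguinal fat was sequenced as paired reads, 3 libraries per group. Alignment used STAR 2.4.2a and mm10, per the submitters' processing notes, while the tool and annotation behind the gene values were not given in those sources. The authors deposited FPKM per gene, and a second table with the count of total reads and the percent aligned of each library. How reads shared by similar genes were handled is likewise not given, so values of close paralogs and pseudogenes are uncertain.

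From these values, log2(FPKM + 1) was fitted with limma 3.58.1 (R 4.3.3) with a mean-variance trend, as 6 group means over all 18 libraries of the series, on the 13815 genes that reached 1 FPKM in 3 or more libraries. P-values were adjusted by Benjamini-Hochberg over those genes, and 0.05 was the threshold. The 2-fold test was limma's treat with a log2 difference of 1. The fit was also run on simulated data in which most genes had no difference between the groups. These data are unlike that setting, so no result here rests on that run. Named genes are the 12 largest rises and falls whose groups did not overlap, up to 3 members of each list in either direction, the most abundant members, the 10 most abundant genes within 2-fold, the 10 highest genes of each group, up to 8 genes listed at 0 in the other group and a set of genes of interest. A further 33 genes, such as Lox, Gpd1, Agpat2, Acly, Ghr, Angptl4, Lhx8, Klf15, Insr and Gsn, were named after their values were seen. Genes, lists and the comparison itself were chosen with earlier results of these data known. Alternatives were another pseudocount, other filters, other scalings, other models and leaving out each library. Of 889 list entries, 880 matched by symbol and 8 by gene ID. The same-numbered libraries of the 2 groups share only a number. A few genes of the lists are not reported here.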

Additional observations from a re-analysis of the deposited data

Results flagged for a closer look

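For 10 genes named here, the lipochondrocytes of P21 and P33 differed from the adipocytes in opposite directions, and the 2 ages differed from each other by limma's test. Both comparisons use the same 3 adipocyte libraries. P21 was chosen as the peak of lipid synthesis transcripts, which favours falls of such genes by P33. The acetoacetyl-CoA synthetase gene Aacs had the largest fall, with a P33 minus P21 difference of -2.83 on the log2(FPKM + 1) scale (adjusted p = 5.81e-07), followed by the monoacylglycerol acyltransferase gene Mogat1 at -2.50 (adjusted p = 8.75e-05) and Dgat2 at -1.94 (adjusted p = 1.20e-05). The sterol synthesis genes Tm7sf2, Pmvk and Mvd stood at -1.89, -1.78 and -1.65, and the elongation gene Tecr at -1.45. The factor gene Klf15 moved least, at -0.82 (adjusted p = 4.01e-04). Igf1 and the actin-severing protein gene Gsn went the other way, at 1.31 (adjusted p = 9.62e-06) and 2.01 (adjusted p = 2.80e-06). Gsn averaged 2618 FPKM at P21, 6563 in adipocytes and 10448 at P33. In all, 31 of the 12454 genes met these conditions. Falls of genes outside lipid synthesis were among them, such as Tubb4b (-1.50) and Mrps6 (-1.42). Scaling without mitochondrially encoded genes took the P21 call from Mogat1, Mvd, Pmvk and Klf15. With 3 libraries per group, no library was tested as an outlier.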

How the results depend on the processing

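Of the 8911 genes past the threshold, none changed direction while staying past it under any alternative run. Leaving out each library in turn gave 8365 to 8610 genes past the threshold and 3194 to 3326 past 2-fold. Requiring 1 FPKM in all 6 libraries, which tests fewer genes (8817), gave 5907 in all and 1908 higher, and 1788 past 2-fold, of which 624 were higher and 1164 lower. A pseudocount of 0.1 gave 8654 and 4117 past 2-fold, and modelling only the 2 groups gave 9169. Scaling decided the split between higher and lower, as given with the counts. When the libraries were scaled to equal sums without mitochondrially encoded genes, the named genes Id3 (-0.07) and Actg1 (-0.01) changed sign and were no longer past the threshold, cholesterol synthesis had 6 higher genes, adipogenic factors 2, and fatty acid synthesis 1. Median-of-ratios scaling left 7 lower genes in glycolysis, and put 5 droplet coat genes and 6 uptake genes as higher. The elastic fibre list had 1 lower gene under that scaling, without a filter, with only the 2 groups modelled and without 5 of the 6 libraries. With 1 FPKM in all 6 libraries, the 14 Hox genes and the 7 cartilage collagens have no value because they are not tested. With the replicate number as a block, 9028 genes passed (3080 higher and 5948 lower), 8842 of the 8911 kept their call and 69 lost it. The correlations of same-numbered libraries' deviations were 0.028, -0.065 and 0.012, so the numbers were not used as a pairing. Depth, at 12461965 reads or more, limits the genes near 1 FPKM, and the deposited FPKM carry no read counts for single genes, so no counting interval can be given.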

Other observations

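The gene 1520401A03Rik, annotated as protein coding at chr17:23704488-23722783 on the minus strand in GENCODE M21, was among the 10 highest genes in P21 lipochondrocytes. It stood at 20696, 15621 and 13682 FPKM there, at 0.09, 0.12 and 0.04 in adipocytes and at 395, 746 and 294 in P33 lipochondrocytes (P33 minus P21 -5.21 on the log2(FPKM + 1) scale, adjusted p = 2.23e-08 by limma).

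A number of genes were listed at 0 in one group and abundant in the other. Among the genes of the comparison, 122 were listed at 0 in every adipocyte library and 191 in every P21 library. The immunoglobulin kappa constant gene Igkc was at 346, 325 and 330.4 FPKM in adipocytes and listed at 0 in the P21 libraries, and lymphocyte markers were also lower in the P21 libraries. All 37 immunoglobulin variable genes of the comparison were lower and entered through the adipocyte libraries alone, which favours that direction. All 10 mitochondrial transfer RNA genes were lower, 8 of them entering in the same way, against 47.3% of all genes of the comparison.

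The P21 libraries had an internal order. All 9 muscle genes and all 5 erythroid genes that passed the filter were highest in library 3, as were 18 of 24 nuclear-encoded respiratory chain genes. Library 1 was highest for 20 of 23 cholesterol synthesis genes and 17 of 24 triglyceride synthesis genes. Over all 12454 genes, library 1 was highest for 5074 and library 3 for 4304.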
